A study of Mus musculus with 4 samples.

Results

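The genes described here are Cd74, H2-Aa, H2-Ab1, H2-Eb1, H2-DMa, Ciita and Ctss, with Cd207 as a control for Langerhans cells. Every probe set that the platform annotation gives to 1 of these 8 genes alone was taken, which made 16 of the 45101 probe sets of the array table. They comprised 4 for H2-Aa, 3 each for H2-Ab1 and Ciita, 2 for H2-DMa and 1 for each of the other genes. The genes were chosen with their differences between Sox2-GFP+ and Sox2-GFP- tumour cells already known, so those differences are given as a description, with no test.

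MHC class II molecules are surface proteins, built from an alpha and a beta chain, that show peptides from engulfed material to CD4 T cells. In the endoplasmic reticulum both chains assemble around the invariant chain, the product of Cd74, which is then cut away by endosomal proteases such as cathepsin S, and H2-DM helps to load the peptide. Dendritic cells, macrophages and B cells make class II constantly, and keratinocytes are known to make it after exposure to interferon-gamma, through the coactivator Ciita. Langerhans cells are antigen-presenting cells of the epidermis that carry class II, Epcam and langerin, the product of Cd207.

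RNA came from tumour epithelial cells of chemically induced mouse skin squamous cell carcinomas, sorted as Epcam-positive and free of CD45, CD31 and CD140a, the markers of leukocytes, endothelium and mesenchyme. The groups were Sox2-GFP+ cells (n = 2 arrays) and Sox2-GFP- cells (n = 2 arrays), which share tumour type and gate and differ by the Sox2 reporter. The series text names 2 tumours of 2 mice as the source, and the labels do not state the strain, the age or the inducing agent. Each group therefore holds 2 samples, which limits the precision of every value below. All values are the authors' deposited log2 values, on which 1 unit is a doubling, and a group difference is Sox2-GFP+ minus Sox2-GFP-. The SE of a difference is limma's moderated SE, which is drawn towards the spread of all probe sets. It can be smaller than the replicates alone give. For Cd74 and Ctss it was 0.35 and 0.98, beside pooled SDs of 0.47 and 1.46. With 2 arrays per group the pooled SD equals the SE without moderation.

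The epithelial gate showed in bright Krt5, Krt14 and Epcam values on every array (10.75 to 13.32), while Sox2 itself read 3.50 and 3.27 in Sox2-GFP+ cells and 3.14 and 3.43 in Sox2-GFP- cells, below the lower quartile of each array (4.19 to 4.25). Sox2 transcript therefore does not check the group labels. Sox2-GFP- replicate 1 stood apart by its leukocyte and endothelial markers. Fibroblast markers were higher on both Sox2-GFP- arrays, most of all on replicate 1, as set out below. On these arrays, fewer cells of a type and less RNA per cell cannot be told apart.

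By the brightest probe set of each gene, the classical class II chains and the invariant chain read 3.76 to 8.57 times lower in Sox2-GFP+ cells, and lower between both pairs of same-numbered arrays; dimmer sets of H2-Ab1 were 2.61 and 2.68 times lower. Averaged over all sets of a gene, the difference was -1.83 for H2-Aa and -1.64 for H2-Ab1. Cd74 read 8.54 and 7.60 in Sox2-GFP+ cells, against 11.10 and 11.24 in Sox2-GFP- cells. Both Sox2-GFP+ arrays lay far below both Sox2-GFP- arrays, with a gap of 2.57 between the nearest. The difference was -3.10 ± 0.35 (SE, n = 2 per group), or 8.57-fold lower. Taken by replicate number, it was 5.92-fold for replicate 1 and 12.4-fold for replicate 2.

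H2-Aa encodes the alpha chain of the I-A molecule. Its brightest probe set read 7.17 and 6.20 in Sox2-GFP+ cells, against 9.62 and 8.83 in Sox2-GFP- cells, a difference of -2.54 ± 0.45 (SE, n = 2 per group). Replicate 1 was higher than replicate 2 in both groups, by 0.97 in Sox2-GFP+ cells and 0.79 in Sox2-GFP- cells, yet the groups did not overlap. The next H2-Aa probe sets by brightness differed by -2.63 and -2.08. The dimmest averaged 3.15 ± 0.21 in Sox2-GFP+ cells and 3.22 ± 0.07 in Sox2-GFP- cells (SD, n = 2 each), below the lower quartile of all 4 arrays, so it carries no readable difference.

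H2-Ab1 encodes the beta chain that pairs with H2-Aa. Its brightest probe set read 7.80 and 7.56 in Sox2-GFP+ cells, against 9.94 and 9.67 in Sox2-GFP- cells. Replicates lay closest together for this gene among the 4 that differed, and the difference was -2.13 ± 0.21 (SE, n = 2 per group), with nearly the same value in replicate 1 (-2.14) and replicate 2 (-2.11). The other 2 H2-Ab1 probe sets gave smaller differences, of -1.38 and -1.42. All 4 H2-Aa sets and 2 of the 3 H2-Ab1 sets carry the array maker's mark for probes that may also bind transcripts of related genes, so their values are uncertain as to the exact gene.

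H2-Eb1, the beta chain of the I-E molecule, read 6.88 and 5.90 in Sox2-GFP+ cells, against 8.46 and 8.13 in Sox2-GFP- cells. The groups were 1.26 apart at their nearest arrays, and the difference was -1.91 ± 0.38 (SE, n = 2 per group), a ratio of 3.76. The alpha chain partner, H2-Ea, is a transcribed pseudogene in the RefSeq table of the C57BL/6J genome (GRCm38.p6), and the labels do not name the strain used here. Its brightest probe set read 5.99 and 5.54 in Sox2-GFP+ cells, against 6.20 and 5.93 in Sox2-GFP- cells, so the groups overlapped (-0.30 ± 0.24, SE, n = 2 per group, limma adjusted p = 0.619).

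**Figure D1:**
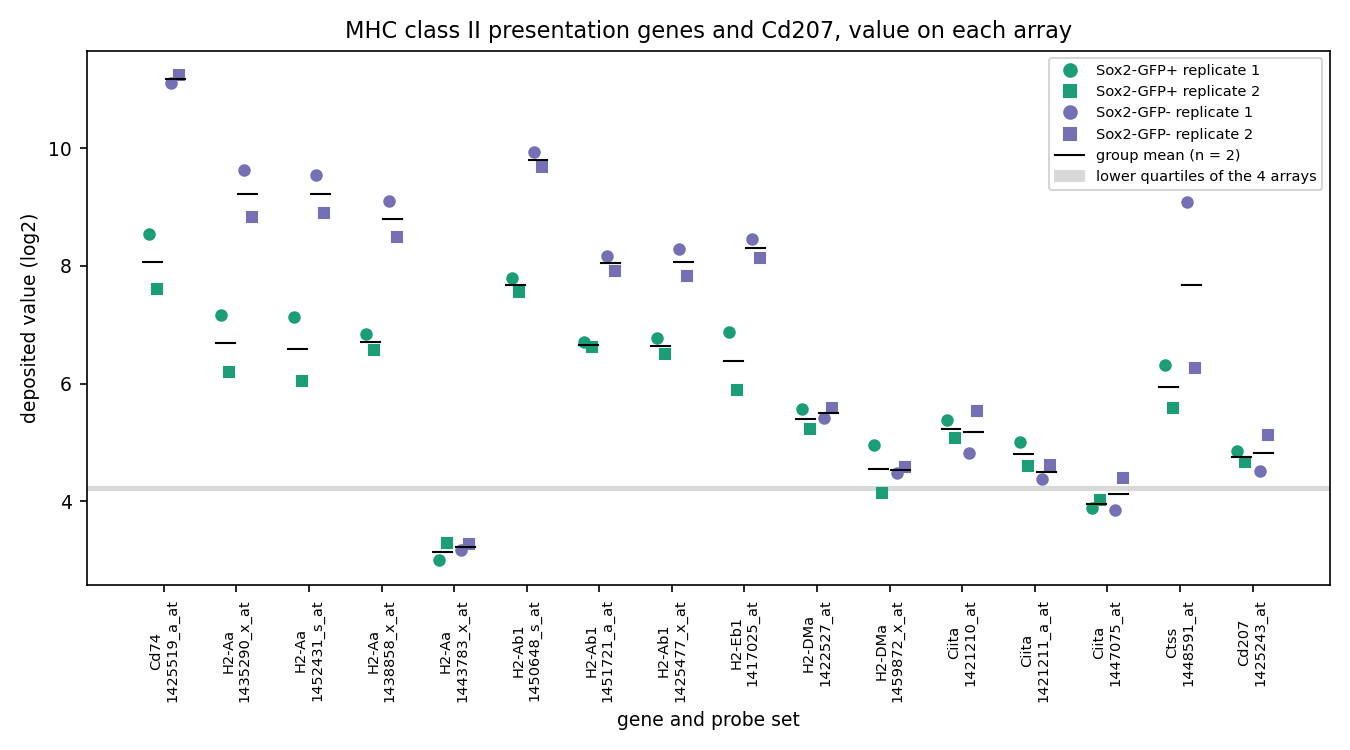
Deposited log2 value (vertical axis) of each of the 16 probe sets (horizontal axis) on the 4 arrays, with Sox2-GFP+ cells left of Sox2-GFP- cells, circles for replicate 1, squares for replicate 2, and lines at the mean of each group (n = 2). Probe sets of Cd74, H2-Aa, H2-Ab1 and H2-Eb1 are separated between the groups except for 1 dim H2-Aa set, while those of H2-DMa, Ciita and Cd207 overlap and Ctss is high on 1 array.

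Of the 16 probe sets, 8 had both Sox2-GFP+ arrays at least 1 unit below both Sox2-GFP- arrays, 0 had them above, and the other 8 had overlapping groups. Over all 45037 probe sets other than array controls, 1.37% were separated by 1 unit below and 0.462% above. The 2 groups lay apart by any margin in 18.4% of all probe sets with Sox2-GFP+ cells lower and in 29.7% with them higher. Because the genes were chosen on this contrast, nothing is read from their share. The limma test across all probe sets called 0 at an adjusted p under 0.05 (0% in each direction), the members included; at an unadjusted p under 0.05 it had 2976 lower and 3349 higher (6.61% and 7.44%), and 8 of the 16 members, all lower. With all 45037 differences ordered from the lowest, Cd74 stood at place 75, and the brightest sets of H2-Aa, H2-Ab1 and H2-Eb1 at places 174, 305 and 450. Scaling to the spike-in transcripts adds 0.79 to every difference; the 4 genes stayed lower (-1.12 to -2.31), and any difference between -0.79 and 0 turns positive, so smaller differences below are to be read relative to the median of all probe sets, 0.07 as deposited.

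**Figure D2:**
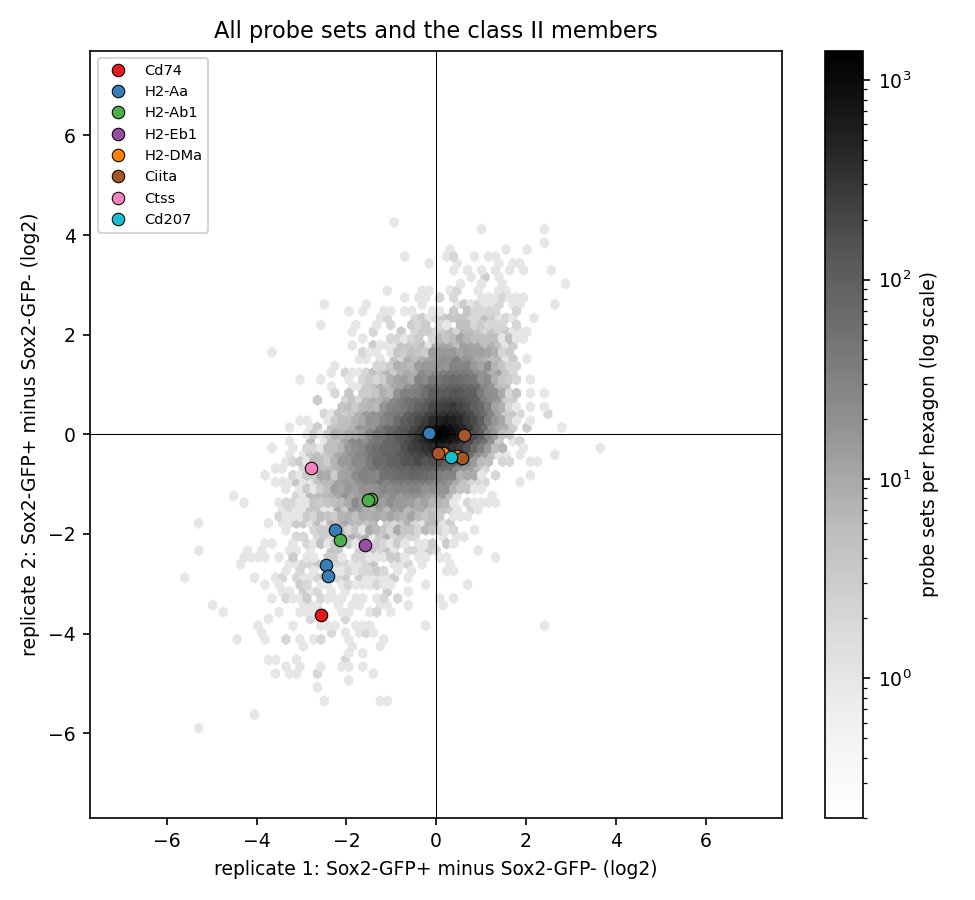
Difference between the replicate 1 arrays (horizontal axis, log2) and between the replicate 2 arrays (vertical axis, log2), each Sox2-GFP+ minus Sox2-GFP-, for all probe sets as grey hexagons shaded by number and the 16 member probe sets as coloured points. Cd74 lies at -2.57 and -3.63, Ctss at -2.78 and -0.68, and the sets of H2-DMa, Ciita and Cd207 lie near 0 on both axes.

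For H2-DMa, the alpha chain of the peptide-loading factor H2-DM, no difference like that of the classical chains was read. Its brighter probe set read 5.57 and 5.23 in Sox2-GFP+ cells, against 5.42 and 5.59 in Sox2-GFP- cells, and the other read 4.95 and 4.15 against 4.49 and 4.58. In both sets the 2 groups overlapped, with differences of -0.11 ± 0.21 and 0.01 ± 0.31 (SE, n = 2 per group). Both lay near or below the array medians, so a low H2-DMa level could differ without being read here. Probe sets given to H2-DMb1 and H2-DMb2 together, which encode the partner chain, read 5.88 and 5.20 against 6.08 and 6.38 in the brighter set and 4.11 and 3.99 against 4.41 and 4.41 in the other (limma adjusted p = 0.398 and 0.431). In both of these sets the Sox2-GFP+ arrays lay below both Sox2-GFP- arrays, by 0.20 and 0.30 at the nearest, with differences of -0.69 and -0.36. The brightest set given to H2-DMb2 alone read 5.81 and 5.11 in Sox2-GFP+ cells and 5.34 and 5.45 in Sox2-GFP- cells (limma adjusted p = 0.943).

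H2-O is the modulator of H2-DM, known mainly from B cells. Its alpha chain gene H2-Oa read 4.81 and 4.53 in Sox2-GFP+ cells and 4.58 and 4.82 in Sox2-GFP- cells. The beta chain gene H2-Ob read 3.29 and 3.18 against 3.37 and 3.15, below the lower quartile of every array, so it carries no readable difference. A set shared by H2-Ob and Gm20506 read 6.09 and 5.28 against 5.25 and 5.42, with overlapping groups. The second I-E beta gene, H2-Eb2, read 5.29 and 5.04 against 5.09 and 5.15. By their own sets, none of H2-Oa, H2-Ob and H2-Eb2 passed the limma test (adjusted p = 0.932 to 0.973), and their groups overlapped. Across the class II chain list of 10 measured genes, 4 were separated by 1 unit below, the others overlapped, and the median difference was -0.20, beside 0.14 over all 18193 genes, of which 1.36% were separated by 1 unit below. The 4 are the chosen members Cd74, H2-Aa, H2-Ab1 and H2-Eb1. For the lists below, also with 1 probe set per gene, 5.05% of all genes were lower and 9.81% higher at an unadjusted p under 0.05.

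Apart from Cd74, the class II chain genes lie together on chromosome 17, which lets neighbours be compared. In the order of the RefSeq gene table, H2-Ab1, H2-Aa and H2-Eb1 stand side by side, between H2-Ob and the non-coding Gm20506 on one flank and H2-Eb2 on the other. On the H2-Ob side lie 4 genes of class I peptide supply. Tap1, a chain of the peptide transporter, read 8.35 and 8.37 in Sox2-GFP+ cells, against 8.80 and 8.80 in Sox2-GFP- cells (-0.44, limma adjusted p = 0.361). Its partner Tap2 differed by -0.38 and the immunoproteasome subunits Psmb8 and Psmb9 by -0.14 and -0.03 (limma adjusted p = 0.422, 0.826 and 0.957). Brd2, a chromatin reader between H2-Oa and H2-DMa, read 10.65 and 10.76 in Sox2-GFP+ cells and 10.69 and 11.01 in Sox2-GFP- cells. Of the 15 genes from H2-Oa to Btnl2 with a probe set of their own, the 3 classical chains were the ones with a difference beyond 0.5 in either direction.

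**Figure D3:**
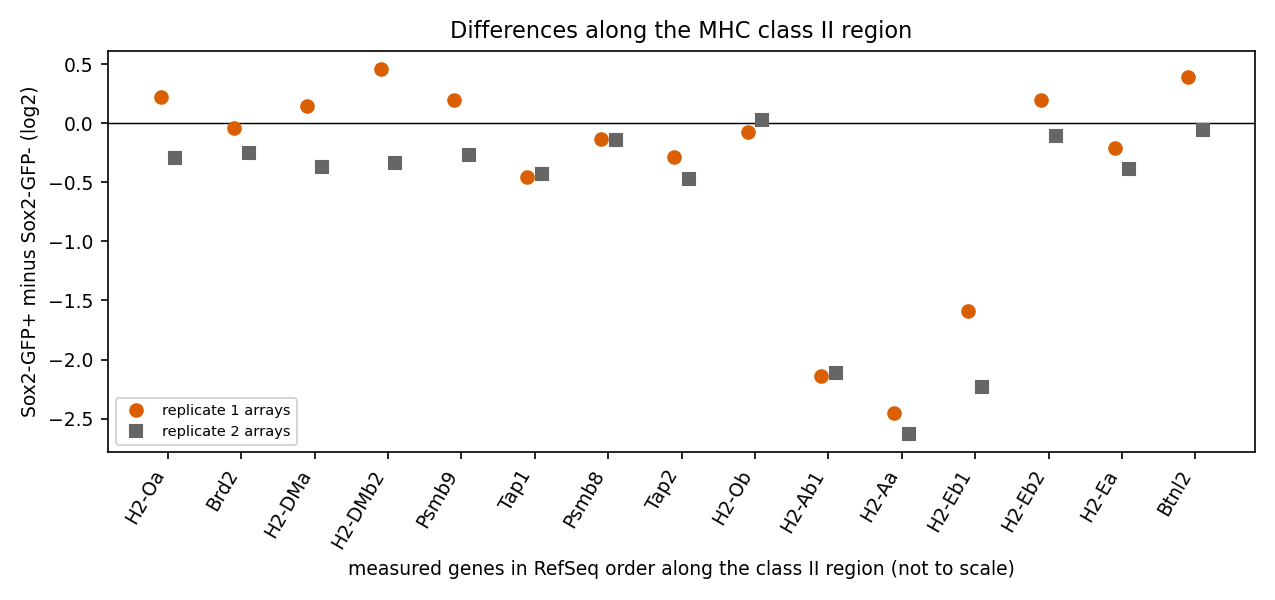
Difference of Sox2-GFP+ minus Sox2-GFP- (vertical axis, log2) between the replicate 1 arrays (circles) and the replicate 2 arrays (squares) for the 15 measured genes of the class II region, in RefSeq order and not to scale (horizontal axis). H2-Ab1, H2-Aa and H2-Eb1 lie between -1.59 and -2.63, and the other 12 genes between -0.47 and 0.46.

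Class II promoters are known for an X box, bound by the RFX complex, and a Y box, an inverted CCAAT motif bound by NF-Y, onto which Ciita docks. Cd74, H2-Ab1 and Ciita had no RefSeq promoter window and were not searched. RefSeq promoter windows (GRCm38.p6, 250 bases before to 50 after the start) were given for 10 of the chain and member genes, as 11 windows. They were searched on both strands for GCAAC, a core of the X box, followed after 15 to 35 bases by GATTGG, the Y box core; neither motif overlaps the other. The pair was found in 5 of the 11 windows, those of H2-Aa, H2-Eb1, H2-Eb2, H2-Oa and H2-Ob, and in 0.365% of all 32851 windows. The pair thus lay before H2-Aa and H2-Eb1, which read lower in Sox2-GFP+ cells. It also lay before H2-Oa and H2-Eb2, whose groups overlapped, and before H2-Ob, whose own set was below the lower quartile of every array. The 120 bases before the start of H2-Aa, H2-Eb1 and the dim H2-Ob are shown to let the spacing be compared. GCAAC and GATTGG are in capitals. H2-Aa is at chr17:34287824-34287943 on the minus strand, H2-Eb1 at chr17:34305747-34305866 on the plus strand and H2-Ob at chr17:34238785-34238904 on the plus strand.
H2-Aa: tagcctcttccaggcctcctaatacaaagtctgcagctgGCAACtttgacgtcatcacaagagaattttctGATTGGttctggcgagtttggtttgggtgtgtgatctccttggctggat
H2-Eb1: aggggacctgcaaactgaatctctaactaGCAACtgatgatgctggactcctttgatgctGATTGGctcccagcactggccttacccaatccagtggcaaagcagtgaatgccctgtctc
H2-Ob: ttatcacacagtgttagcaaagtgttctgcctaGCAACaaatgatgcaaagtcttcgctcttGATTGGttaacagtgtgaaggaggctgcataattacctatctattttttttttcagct

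The 2 motifs were 27 bases apart before H2-Aa, 26 before H2-Eb1 and 24 before H2-Ob. Counted with or without the other motif, GCAAC was in 54.5% of the 11 windows, against 35.2% of all windows. GATTGG, counted the same way, was in 72.7%, against 16.1%. Of the 2 windows of H2-DMa, 1 held GCAAC and the other GATTGG. A match is a run of letters and no measured binding site.

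Ciita, the coactivator that sets class II transcription, showed no difference that its replicates could resolve. Its brightest probe set read 5.39 and 5.07 in Sox2-GFP+ cells, against 4.82 and 5.54 in Sox2-GFP- cells. The 2 Sox2-GFP- arrays enclosed the 2 Sox2-GFP+ arrays, and the difference was 0.05 ± 0.31 (SE, n = 2 per group). The second set read 5.01 and 4.60 against 4.38 and 4.61, and the third 3.89 and 4.02 against 3.86 and 4.40. All 3 sets lay in the lower part of the arrays, near or below the array medians of 5.49 to 5.61, and the table gives no detection calls; a low Ciita level could differ without being read here.

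Of the 14 measured regulators of class II genes, Ciita included, none passed the limma test over all probe sets, and at an unadjusted p under 0.05 there was 1 lower and 1 higher. These were 2 subunits of the RFX complex. Rfx5, the subunit that binds the X box, read 8.16 and 7.88 in Sox2-GFP+ cells, against 8.96 and 8.61 in Sox2-GFP- cells (-0.76 ± 0.23, SE, n = 2 per group, limma adjusted p = 0.295). Rfxap, another subunit, read 8.09 and 7.89 against 7.30 and 7.56 (0.56 ± 0.20, SE, n = 2 per group, limma adjusted p = 0.343). Rfxank, the other subunit gene, read 7.26 and 6.74 against 6.56 and 6.72 (limma adjusted p = 0.558).

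The NF-Y subunit genes Nfya, Nfyb and Nfyc differed by 0.16, 0.25 and -0.24, with overlapping groups, and Creb1, an X2 box factor, by 0.12. Prdm1, a repressor of Ciita in plasma cells, read 8.26 and 8.26 in Sox2-GFP+ cells, against 8.63 and 9.25 in Sox2-GFP- cells (limma adjusted p = 0.366). The repressor genes Hdac2 and Sin3a differed by 0.16 and 0.12, and the immune transcription factor genes Irf4, Irf8 and Spi1 by 0.11, -0.20 and -0.14. Over the 14 regulators, Ciita included, the median difference was 0.11, beside 0.14 over all genes; 0 were separated by 1 unit.

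Ctss encodes cathepsin S, the protease that trims the last of the invariant chain in antigen-presenting cells. It read 6.31 and 5.59 in Sox2-GFP+ cells, against 9.09 and 6.27 in Sox2-GFP- cells. The high value stood on 1 array, Sox2-GFP- replicate 1, and Sox2-GFP- replicate 2 lay just below Sox2-GFP+ replicate 1. The difference was -1.73 ± 0.98 (SE, n = 2 per group) over all arrays and -0.32 without Sox2-GFP- replicate 1. Among the 13 genes of endosomal processing, 0 passed the limma test, with 2 lower and 1 higher at an unadjusted p under 0.05, and their median difference was 0.07. The brightest were Ctsb and Ctsd, lysosomal cathepsins, and Cst3, which encodes the cathepsin inhibitor cystatin C. They differed by -0.04, 0.29 and 0.22 (limma adjusted p = 0.567 to 0.931). The 2 lower genes were Ctsk, at 6.14 and 5.10 against 8.60 and 6.71, and Ctsh, which differed by -0.66. The 1 higher was Ctsl, which differed by 0.72. Ctsz read 7.80 and 6.43 against 9.26 and 8.13. Of the 13, 4 had groups apart by any margin with Sox2-GFP+ cells lower and 3 with them higher, where 14% and 35.5% of all genes did.

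Cd207, which marks Langerhans cells, read 4.85 and 4.67 in Sox2-GFP+ cells, against 4.51 and 5.13 in Sox2-GFP- cells. The Sox2-GFP- arrays enclosed the Sox2-GFP+ arrays, and the difference was -0.06 ± 0.27 (SE, n = 2 per group). By replicate number it was 0.34 in replicate 1 and -0.46 in replicate 2. The probe set lay between the lower quartile and the median of every array.

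As lists, the fibroblast markers and the class II genes were higher on both Sox2-GFP- arrays than on both Sox2-GFP+ arrays. Markers of fibroblasts, leukocytes, macrophages and Langerhans cells were all highest in Sox2-GFP- replicate 1. For each list the mean over genes of the log2 value minus the gene's own 4-array mean was taken on each array. For Cd74, H2-Aa, H2-Ab1 and H2-Eb1 this relative level was -0.82 and -1.60 in Sox2-GFP+ cells and 1.37 and 1.05 in Sox2-GFP- cells. For the 14 pan-leukocyte genes it was -0.04 and -0.48 in Sox2-GFP+ cells and 0.73 and -0.20 in Sox2-GFP- cells. For the 10 fibroblast genes it was -0.14 and -2.11 in Sox2-GFP+ cells and 1.96 and 0.29 in Sox2-GFP- cells. The class II genes were high on both Sox2-GFP- arrays. The fibroblast genes, like the leukocyte genes, were highest on Sox2-GFP- replicate 1. For them Sox2-GFP- replicate 2 (0.29) lay little above Sox2-GFP+ replicate 1 (-0.14).

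The fibroblast list had a median difference of -2.51, beside the -2.33 of the 4 class II genes, with -2.11 for replicate 1 and -2.93 for replicate 2. The 4 class II genes were chosen with this contrast known, so neither their median nor their separation is a like comparison for this list. The class II chain list had 4 of 10 genes separated by at least 1 unit below and a median of -0.20. In the fibroblast list 1 gene of 10 was so separated, Mfap5, where 1.36% of all genes were. In 9 of its 10 genes both Sox2-GFP+ arrays lay below both Sox2-GFP- arrays, where 14% of all genes did, with 0 past the limma threshold and 2 lower at an unadjusted p under 0.05. Pdgfra, which encodes the CD140a used to gate cells out, read 5.93 and 4.85 in Sox2-GFP+ cells, against 7.83 and 5.96 in Sox2-GFP- cells. Col1a1, a chain of type I collagen and the brightest of the list, read 12.57 and 9.60 against 13.68 and 12.76 (limma adjusted p = 0.440 for both genes). Sox2-GFP+ replicate 1 thus lay close below Sox2-GFP- replicate 2 in both, and Sox2-GFP+ replicate 2 was the lowest array.

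Differences between the replicate 2 arrays alone, which leave out Sox2-GFP- replicate 1, were added after seeing the data and compare 1 array with 1. The 4 class II genes had a median difference of -2.43 there and of -2.30 between the replicate 1 arrays. The pan-leukocyte list had -0.28 and -0.33. It was not chosen on this contrast and several of its genes read near or below the array medians, so these medians are not alike. Laptm5, the brightest leukocyte gene, read 7.35 and 6.38 in Sox2-GFP+ cells, against 9.50 and 7.43 in Sox2-GFP- cells. It was highest on Sox2-GFP- replicate 1, and differed by -2.15 in replicate 1 and -1.05 in replicate 2. The next brightest, Cd53 and Fcer1g, differed by -2.17 and -1.72 in replicate 1 and by 0.51 and -0.88 in replicate 2. Of the 2 sets of Ptprc, which encodes CD45, 1 read 3.79 and 4.30 in Sox2-GFP+ cells against 6.40 and 3.68 in Sox2-GFP- cells, also high on Sox2-GFP- replicate 1, and the other 4.98 and 4.34 against 4.97 and 4.18. No gene of the pan-leukocyte list passed the limma test, and at an unadjusted p under 0.05 there was 0.

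The 12 Langerhans markers had relative levels of -0.04 and -0.23 in Sox2-GFP+ cells and 0.54 and -0.27 in Sox2-GFP- cells, the lowest being Sox2-GFP- replicate 2. Their median difference was -0.14 over all arrays and -0.02 between the replicate 2 arrays, and 0 passed the limma test, with 0 at an unadjusted p under 0.05. The 14 macrophage and monocyte markers stood at -0.07 and -0.48 against 0.71 and -0.17, with a median difference of -0.72, or -0.25 between the replicate 2 arrays; 0 passed the limma test, and 2 were lower at an unadjusted p under 0.05. Adgre1, which encodes the macrophage antigen F4/80, read 3.76 to 4.08 on all 4 arrays, below their lower quartiles. The brightest of the list, Cd68 and Cd14, differed by 0.35 and 0.19. The next, lysozyme gene Lyz2, read 7.09 and 6.17 against 9.12 and 6.45. After it came C1qb, at 6.37 and 5.44 against 8.08 and 6.73, with the groups apart. The 2 lower genes were Mertk, at 4.70 and 4.94 against 6.26 and 5.73, and Cd163. Cd163 read 3.77 and 3.91 against 4.28 and 4.76, near the lower quartiles. Of the 14, 4 had groups apart by any margin with Sox2-GFP+ cells lower and 3 with them higher, where 14% and 35.5% of all genes did.

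The 12 dendritic cell markers had a median difference of 0.05, and Flt3, the growth factor receptor that defines the lineage, read 4.56 and 4.72 in Sox2-GFP+ cells and 4.70 and 4.57 in Sox2-GFP- cells. The 9 B cell markers had a median difference of 0.20, with 3 below the lower quartile on every array, and the 10 T cell markers one of -0.10. None of these 3 lists held a gene past the limma threshold, and at an unadjusted p under 0.05 the dendritic list had 1 higher, the actin-bundling Fscn1, and the others 0. The 10 endothelial genes stood at -0.03 and -0.81 against 1.12 and -0.28, with a median difference of -0.88, or -0.63 between the replicate 2 arrays, and 0 past the limma threshold or lower at an unadjusted p under 0.05. The part of fibroblasts and of the other cell types in the class II difference was not tested.

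**Figure D4:**
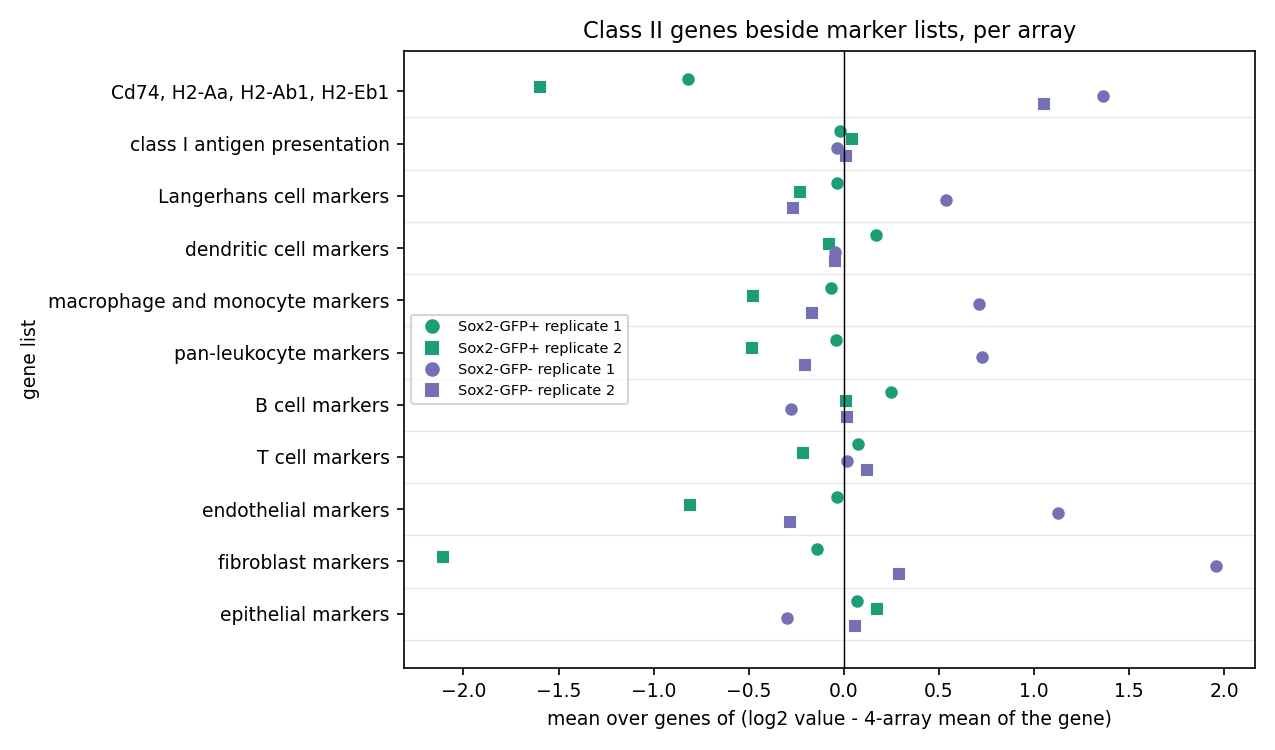
Mean over the genes of each list (rows) of the log2 value minus the gene's own mean over the 4 arrays (horizontal axis), with Sox2-GFP+ arrays in green above Sox2-GFP- arrays in purple, circles for replicate 1 and squares for replicate 2. The 4 class II genes are high on both Sox2-GFP- arrays (1.37 and 1.05). The fibroblast list (1.96 and 0.29) and the leukocyte, macrophage, Langerhans and endothelial lists are highest on Sox2-GFP- replicate 1. In the fibroblast list both Sox2-GFP- arrays lie above both Sox2-GFP+ arrays.

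Genes that act beside class II were read from the same arrays. Among the 10 costimulatory and checkpoint ligands, 0 passed the limma test, and at an unadjusted p under 0.05 there were 1 lower and 3 higher. Cd80, a ligand of CD28 and CTLA4 on T cells, read 7.67 and 7.40 in Sox2-GFP+ cells, against 6.20 and 4.67 in Sox2-GFP- cells, the opposite order to the class II chains (2.09 ± 0.54, SE, n = 2 per group, limma adjusted p = 0.270). It was the only gene of that list separated by 1 unit above, where 0.665% of all genes were. Icam1, Cd40 and Icosl, the brightest of the list, differed by -0.33, 0.07 and -0.02.

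The ubiquitin ligases of Marchf1 and Marchf8 remove class II from the surface. Marchf1 read 4.13 and 3.96 in Sox2-GFP+ cells, against 4.62 and 4.74 in Sox2-GFP- cells, near the lower quartiles (limma adjusted p = 0.287), and Marchf8 read 7.43 and 8.35 against 7.47 and 6.55 (limma adjusted p = 0.466). Of the 6 measured genes of surface turnover, 0 passed the limma test and 1, Marchf1, was lower at an unadjusted p under 0.05.

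Interferon-gamma is the known inducer of class II in keratinocytes, and 16 genes of its pathway were measured. None passed the limma test, and 3 were lower at an unadjusted p under 0.05, with a median difference of -0.34, which was -0.62 in replicate 1 and 0.01 in replicate 2. The relative level of the list was -0.33 and 0.07 in Sox2-GFP+ cells and 0.11 and 0.15 in Sox2-GFP- cells. Of the 16, 6 had groups apart by any margin with Sox2-GFP+ cells lower and 3 with them higher, where 14% and 35.5% of all genes did. Nlrc5, the class I counterpart of Ciita, was the only one separated by 1 unit, at 7.30 and 7.18 in Sox2-GFP+ cells against 8.79 and 8.55 in Sox2-GFP- cells (-1.43 ± 0.19, SE, n = 2 per group, limma adjusted p = 0.226), and was named after its values were seen. Ifng read 3.32 to 3.75 on all 4 arrays, below their lower quartiles. Jak1, the brightest, read 9.93 and 10.21 against 10.55 and 10.87, and Irf1 and Ifngr2 differed by -0.37 and 0.44.

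Class I genes differed little in size. B2m, the light chain, averaged 13.04 ± 0.05 in Sox2-GFP+ cells and 13.14 ± 0.01 in Sox2-GFP- cells (SD, n = 2 each), and the heavy chain genes H2-K1 and H2-D1 differed by -0.22 and -0.08. Over the 14 genes the median difference was -0.06, with 0 separated by 1 unit, 0 past the limma threshold and 1 higher at an unadjusted p under 0.05.

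The genes most like the class II chains over the 4 arrays were found by the distance between a gene's log2 values, centred on its mean, and the mean centred profile of Cd74, H2-Aa, H2-Ab1, H2-Eb1 and H2-DMa. Members, predicted genes and clone names were left out, and a name filter also dropped symbols that start with C and a digit, such as C1qa. The 10 nearest of the other genes were Aldh3b2 (0.18), Elovl6 (0.20), Cidea (0.21), Acot1 (0.21), Sdr42e1 (0.22), Neurl1b (0.23), Elovl3 (0.26), Adh7 (0.29), Lifr (0.30) and Ace (0.30). Aldh3b2 read 7.66 and 7.22 in Sox2-GFP+ cells, against 9.46 and 9.27 in Sox2-GFP- cells. Elovl6 read 8.48 and 7.86 against 10.46 and 10.02. None of the 10 is a marker on the leukocyte, Langerhans, dendritic, macrophage or fibroblast lists. Those lists hold few of all genes, so nothing is read from this. With 4 arrays the likeness is a description of 4 points.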

How the data were processed

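Tumour epithelial cells were profiled on 4 Affymetrix mouse whole-genome arrays, 1 per sample. Bacterial transcripts were added to the RNA before amplification and biotin labelling, per the labels' protocols. The authors deposited 1 table of log2 values (45101 probe sets; scale read from the values). The submitters' processing notes name R 2.14.0; how background was corrected and probe sets were normalized and summarised is not given in the sources used here, and no detection calls or depth come with the values.

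Groups and replicate numbers came from sample titles. The 64 control probe sets were left out. The platform annotation gave 1 gene to 34945 probe sets, several to 932 and none to 9160; those with 1 were named, 34741 of them matching RefSeq (GRCm38.p6) by gene number. For lists, each of 18193 genes was represented by its brightest probe set. The test was limma 3.58.1 in R 4.3.3 (lmFit, eBayes) over 45037 probe sets, group as the only term, Benjamini-Hochberg adjusted p under 0.05, with 2 residual degrees of freedom; it was tested on simulated data.

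Members and lists were chosen with earlier results of these data known. Named are all members, class II chains and regulators, the 10 genes nearest in profile and neighbours of the chain genes. From the other lists only some of the 3 brightest genes and of the first genes are named. A few list genes, such as Nlrc5, Mfap5, C1qb, Mertk, Cd163, Ctsk, Ctsh, Ctsl and Ctsz, were named for their values. Series text and titles do not say that a replicate number marks a tumour; differences between replicates 1 and 2 in the 2 groups correlated across probe sets with r = 0.18, so the number was used as a block in an alternative only. Alternatives were the block, quantile, median and spike-in scaling, a filter on dim sets, 1 set per gene, other priors and thresholds, and leaving out each array.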

Additional observations from a re-analysis of the deposited data

How the results depend on the processing

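Cd74, H2-Aa, H2-Ab1 and H2-Eb1 stayed lower in Sox2-GFP+ cells under quantile and equal-median scaling, spike-in scaling, averaging over all probe sets of each gene, and without each array. The median over the 5 chain genes with H2-DMa was -2.13, and -1.99 to -2.40 with 1 array left out. Of the 16 probe sets, 8 were separated by 1 unit, and 8 to 9 with 1 array left out. Spike-in scaling, to 24 probe sets for poly-A transcripts, adds 0.79 to every difference and moves the median of all probe sets from 0.07 to 0.86. By that construction the chain median became -1.34, 1 member probe set stayed separated by 1 unit, and limma called 26711 probe sets higher and 315 lower, 6 members among the lower; H2-DMa, Ciita and Cd207 then read 0.68, 0.84 and 0.73 higher in Sox2-GFP+ cells, so differences are best read relative to other genes. Limma called 0 probe sets in either direction under every other setting run, including the replicate block (lowest adjusted p = 0.0974), the replicate block with quantile normalization, added after seeing the data (0.0935), and a trended prior (0.0537). At an unadjusted p under 0.05 the replicate block had 3102 higher and 3997 lower. It called 0 members. Ctss ran from -0.32 to -3.14 with 1 array left out, the smallest being without Sox2-GFP- replicate 1. Ciita, H2-DMa and Cd207 changed sign when single arrays were left out (-0.31 to 0.41, -0.28 to 0.06 and -0.37 to 0.25). With 2 arrays per group and no detection calls, a dim probe set only bounds a transcript's level.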
